A study of Mus musculus with 15 samples.

Results

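The 40 genes described here are interferon-stimulated genes with antiviral roles, taken by symbol from a table of 24891 genes measured in subcutaneous 105K tumors of mice. All 40 symbols were found. They were read in 15 libraries that form 5 groups of 3. Bulk tumors gave 2 groups, sh-NC and sh-B7-H3 (1), and sorted tumor cells gave 3, which add sh-B7-H3 (2) to the same pair. The 105K line is a Tsc2-deficient mouse renal tumor line, so sh-NC tumors lack Tsc2 as well. It was injected under the skin of male wild-type C57BL/6J mice, 6 weeks old at injection, whose T cells and other host cells were intact. sh-NC is a non-targeting shRNA, and sh-B7-H3 (1) and (2) are separate shRNAs against the mRNA of B7-H3 (gene symbol CD276), an immune checkpoint protein of the tumor cell surface. The shRNA lines were mixed pools of transduced, puromycin-selected cells and not single clones. Sorted cells are those that passed a magnetic column after antibodies against non-tumor cells had been bound, so they were enriched by depletion and not by a tumor marker. The methods speak of biological samples without saying how many animals gave each library, so p-values here measure the spread between libraries. No bulk tumors with sh-B7-H3 (2) were analysed here.

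Type I interferons bind the receptor IFNAR1 and IFNAR2, and the kinases JAK1 and TYK2 then activate ISGF3, a transcription factor complex that includes STAT2 and IRF9 and binds the interferon-stimulated response element (ISRE) in promoters of antiviral genes. IFN-γ acts through another receptor and the gamma-activated sequence (GAS) of promoters, and it induces many of the same genes to different degrees. The products sense viral RNA and DNA, degrade RNA, block translation, entry and budding, and attach the ubiquitin-like protein ISG15 to other proteins.

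RefSeq promoters of build GRCm38.p6, from 250 bases before to 50 bases after the start of transcription, were found for 29 of the 40 genes. The ISRE core GAAANNGAAA, searched on both strands, was present in 13 of these 29, against 3.99% of 27025 genes and 3.44% of 32851 promoters of the same length. The GAS core TTCNNNGAA, which is its own reverse complement, was present in 7 of 29, against 9.55% of genes. The ISRE matches lay before the start in 8 genes and only after it in 5. Of the 8, the 6 windows that lie outside the annotated span of their gene are printed, because they show the element for which these genes are known. They run 5′ to 3′ on the strand of the gene, with 20 bases on each side, and capitals mark the match or overlapping matches. TTTC blocks are the same element on the other strand.
ISG15, chr4:156200855-156200916, minus strand: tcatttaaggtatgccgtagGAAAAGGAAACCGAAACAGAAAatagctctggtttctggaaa
IFIT1, chr19:34640765-34640833, plus strand: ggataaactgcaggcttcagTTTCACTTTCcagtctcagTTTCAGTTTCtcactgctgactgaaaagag
BST2, chr8:71537567-71537622, minus strand: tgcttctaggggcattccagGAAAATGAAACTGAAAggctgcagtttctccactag
RSAD2, chr12:26456543-26456592, minus strand: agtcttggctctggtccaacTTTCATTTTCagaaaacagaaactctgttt
OAS3, chr5:120777705-120777754, minus strand: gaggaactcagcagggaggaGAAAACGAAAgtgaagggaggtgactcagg
TRIM30A, chr7:104465200-104465249, minus strand: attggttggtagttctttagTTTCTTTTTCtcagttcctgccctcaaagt
ISG15 carried 3 overlapping matches between 78 and 57 bases before the start. IFIT1 held 2 separate matches between 104 and 76 bases before it, and BST2 held 2 overlapping ones.

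Values are FPKM (fragments per kilobase of gene, relative to the size of the library), scaled between libraries by a median-ratio factor. The depth of the libraries relative to sorted sh-NC replicate 1 ranged from 0.468 to 1, and 1 microRNA entry, MIR6236, held between 6.01% and 79.66% of the summed FPKM. Its share was 17.19% to 79.66% in bulk libraries and 6.01% to 10.47% in sorted knockdown libraries. In sorted sh-NC cells it was 9.43%, 51.65% and 6.24%. CD276 was at 34.1, 20.1 and 17.3 in sorted sh-NC cells, at 7.32, 14.0 and 11.5 with sh-B7-H3 (1), and at 23.4, 25.5 and 25.8 with sh-B7-H3 (2). In bulk tumors it was between 20.8 and 23.6 with sh-NC and between 17.9 and 24.5 with sh-B7-H3 (1). The mRNA of the target thus lay below its controls without overlap only in the sorted libraries labelled sh-B7-H3 (1), where the adjusted p was 0.0547, and all directions given for the libraries labelled sh-B7-H3 (2) and for bulk sh-B7-H3 (1) rest on their labels. Epithelial and renal tumor markers (8 genes) summed to between 909 and 1889 in the 9 sorted libraries. The 10 leukocyte markers summed to 240.2 in sorted sh-B7-H3 (2) replicate 1, to between 5.77 and 15.0 in the other 8 sorted libraries, and to between 205 and 415 in the 6 bulk libraries. That library thus had a leukocyte sum within the bulk range, while its macrophage sum (881) and endothelial sum (23.7) lay below every bulk library (919 to 1615 and 29.8 to 51.6) and above every other sorted one (64.4 to 168 and 0.567 to 1.84), and results that rest on it are given with and without it.

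In sorted cells, the antiviral genes were broadly higher with either B7-H3 shRNA than with sh-NC. With sh-B7-H3 (1), 26 of 40 rose and none fell, led by the nucleic acid sensor ZBP1 (4.8-fold), the OAS-like protein OASL2 (4.16-fold) and the ISG15-conjugating enzyme UBE2L6 (4.02-fold). With sh-B7-H3 (2), 32 of 39 rose and none fell, led by OASL2 (4.79-fold) and ZBP1 (4.01-fold). All 26 genes called with the first shRNA were also called with the second. Calls are at an adjusted p below 0.05 by limma over all genes tested, and fold changes are on the log2(scaled FPKM + 1) scale, which understates the change of low genes. Of all genes tested, 9.03% were called higher and 4.37% lower with sh-B7-H3 (1), and 11.7% higher and 7.45% lower with sh-B7-H3 (2). The median log2 fold change of the antiviral genes was 1.01 and 1.07, beside 0.00 and 0.01 over all genes. OAS2 in both comparisons and MX1 in the first were below 1 in every sorted control and met the filter (at least 1 in 3 libraries) only through the knockdown libraries. Without them 25 of 38 and 31 of 38 genes were called, with medians of 1.01 and 1.03. The 3 libraries with sh-B7-H3 (1) lay above the 3 sh-NC libraries for 32 of the 40 genes, which held for 16.7% of all genes tested, and with sh-B7-H3 (2) they did so for 34, against 20.0% of all genes. The 2 comparisons share the sh-NC libraries.

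**Figure D1:**
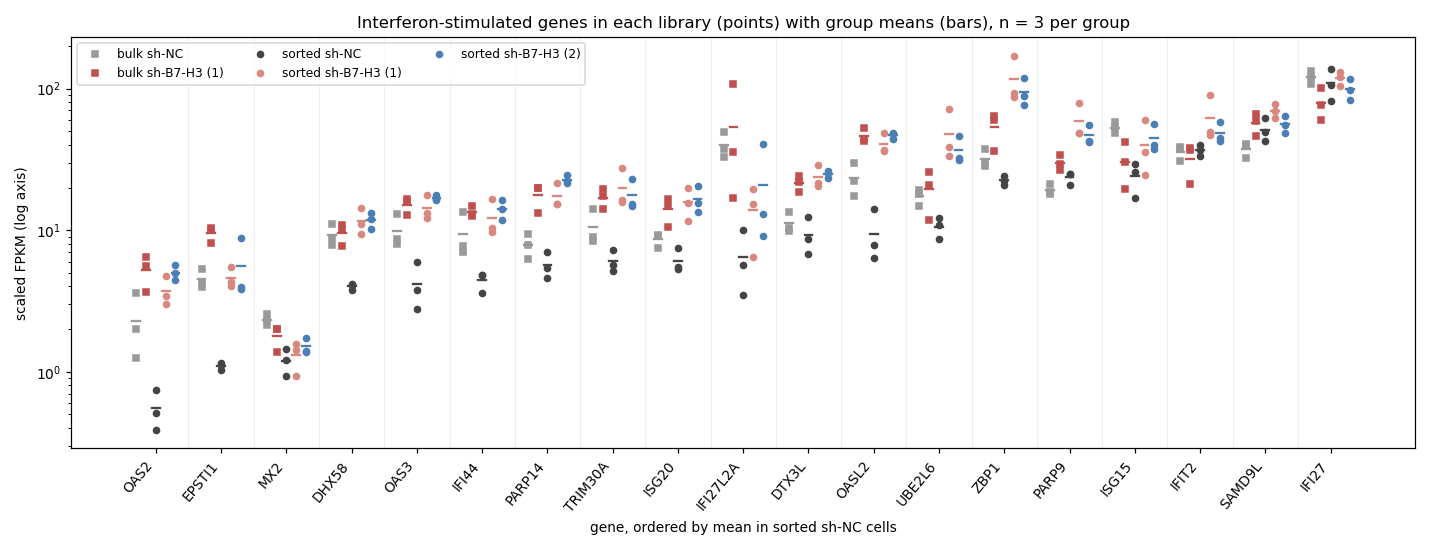
Scaled FPKM (log axis) of 19 interferon-stimulated genes in each of the 15 libraries, with squares for bulk tumors, circles for sorted cells and a bar at each group mean (n = 3). The genes were picked as the largest called changes of the comparisons and the 3 smallest changes in sorted cells, which in part fixes the pattern. Sorted sh-NC cells lie lowest for most of them. MX2, SAMD9L and IFI27, the 3 smallest, show overlapping sorted groups. Sorted sh-NC also overlaps sh-B7-H3 (1) for ISG15 and both knockdown groups for IFI27L2A.

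Sums of leukocyte, macrophage and T cell markers moved with these groups. Leukocyte markers (10 of 10 detected) summed to between 5.77 and 9.16 in sorted sh-NC cells, to between 11.5 and 15.0 with sh-B7-H3 (1), and to 10.0, 10.3 and 240.2 with sh-B7-H3 (2). Macrophage markers (10 of 10) summed to between 64.4 and 69.6, between 146 and 168, and between 132 and 881, in the same order. T cell markers (9 of 10) summed to at most 0.784 in sorted sh-NC cells, where 3 of them were at 0 in every library, and to between 1.33 and 1.62 with sh-B7-H3 (1). With sh-B7-H3 (2) they summed to 1.82, 2.04 and 24.9. The value of 24.9, in replicate 1, lay above every bulk library (2.66 to 22.7). The epithelial and renal tumor sum was also higher, at 909 to 1105 with sh-NC, 1526 to 1721 with sh-B7-H3 (1) and 1740.3 to 1889 with sh-B7-H3 (2). Neutrophil sums overlapped between sh-NC (0.117 to 0.979) and sh-B7-H3 (1) (0.283 to 0.486), as did endothelial sums (0.567 to 0.794 and 0.739 to 1.06). Fibroblast sums (36.5 to 82.2 and 56.3 to 85.0) and plasmacytoid dendritic cell sums (9.77 to 16.7 and 10.8 to 17.2) also overlapped. With sh-B7-H3 (2), neutrophil (1.77 to 11.2), endothelial (1.44 to 23.7) and fibroblast sums (121 to 162) lay above sh-NC. The part of the remaining host cells in the rise was not tested. Without the leukocyte-rich library, sh-B7-H3 (2) still gave 25 of 38 genes higher, all among the 32, with a median of 0.90. Of the other 7, IFIH1, IFIT1, IFIT3, EIF2AK2, BST2 and ISG15 were tested and no longer called, in a fit with 2 knockdown libraries, and OAS2 was not tested because fewer than 3 libraries then reached 1. The 11.7% of all genes called higher belongs to the fit with every library. Counts over all genes also moved when a library was left out, so that share is no background for the 25.

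Among the 4 sensors of viral nucleic acid, ZBP1, IFIH1 and DHX58 rose with both shRNAs and DDX58 passed the test with neither. ZBP1, which binds left-handed double-stranded nucleic acid and can start necroptosis, was at 20.8, 22.3 and 24.3 in sorted sh-NC cells, at 170.0, 87.3 and 93.3 with sh-B7-H3 (1), and at 119, 76.4 and 88.5 with sh-B7-H3 (2). Every knockdown library lay above the highest control value, and replicate 1 was the highest in both knockdown groups. The log2 fold change of ZBP1 was 2.26 ± 0.25 (SE, adjusted p = 0.000602) with sh-B7-H3 (1) and 2.00 ± 0.18 (adjusted p = 0.000219) with sh-B7-H3 (2). DHX58 (LGP2), a helper of the RNA helicase sensors, was at 4.13, 4.18 and 3.8 in controls, at 14.4, 9.41 and 11.0 with the first shRNA and at 13.3, 10.2 and 12.0 with the second. Both knockdown groups lay far above the controls, with log2 fold changes of 1.30 ± 0.16 (adjusted p = 0.00117) and 1.34 ± 0.13 (adjusted p = 0.000377). IFIH1 (MDA5), the sensor of long double-stranded RNA, changed by 1.08 ± 0.17 and 0.72 ± 0.16 on the log2 scale, both called. DDX58 (RIG-I), the sensor of RNA with a 5′ triphosphate, had values of 4.96 to 10.6 in controls and of 9.24 to 11.0 in the knockdown libraries, and the groups overlapped.

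Of the 10 effectors on RNA and translation, 6 rose with sh-B7-H3 (1) and 9 with sh-B7-H3 (2), and the OAS family led. OAS proteins sense double-stranded RNA and make the messenger that activates RNase L. OAS2 was below 1 in sorted sh-NC cells (0.746, 0.515 and 0.391) and reached 4.78, 3.03 and 3.4 with sh-B7-H3 (1) and 5.66, 4.41 and 4.97 with sh-B7-H3 (2). OAS3 rose from 5.91, 3.8 and 2.79 to 17.8, 12.2 and 13.2 and to 17.8, 16.6 and 16.2. In neither gene did a knockdown group overlap the sh-NC group, although OAS2 entered the test only through the knockdown libraries. The log2 fold changes of OAS2 and OAS3 lay between 1.60 and 1.96. OASL2, which has an OAS fold and ubiquitin-like domains, was at 14.1, 7.88 and 6.35 in controls, at 48.9, 36.4 and 37.1 with the first shRNA, and at 48.3, 47.8 and 44.1 with the second. Its log2 fold changes were 2.06 ± 0.27 (adjusted p = 0.00136) and 2.26 ± 0.25 (adjusted p = 0.000661). OAS1A and OASL1 also rose with both shRNAs. OAS genes resemble each other closely in part, as do the IFIT and IFITM genes, and reads could have been split among them.

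The exonuclease ISG20 was at 5.3, 7.44 and 5.5 in sorted sh-NC cells, at 19.9, 15.6 and 11.6 with sh-B7-H3 (1), and at 20.6, 15.5 and 13.4 with sh-B7-H3 (2). It rose by 1.22 ± 0.21 (adjusted p = 0.00598) and by 1.30 ± 0.19 (adjusted p = 0.00264) on the log2 scale. The IFIT genes, whose proteins bind viral RNA lacking host cap marks, were called in part. IFIT1 and IFIT3 were called with sh-B7-H3 (2) (log2 fold changes 0.59 and 0.69) and had values of 0.65 and 0.89 with sh-B7-H3 (1), where adjusted p was 0.0972 and 0.0505. IFIT2 was called with neither: it was at 36.6, 40.0 and 33.3 in controls, at 89.3, 46.8 and 49.0 with sh-B7-H3 (1), and at 58.0, 45.1 and 42.3 with sh-B7-H3 (2). Neither knockdown group overlapped the controls, but replicate 1 of the first shRNA stood far above the other libraries. The kinase EIF2AK2 (PKR), which halts translation on double-stranded RNA, was called with sh-B7-H3 (2) (0.56 ± 0.13) and not with sh-B7-H3 (1) (0.28 ± 0.15). Without the leukocyte-rich library, which left 2 libraries with sh-B7-H3 (2), none of the 3 was called, with log2 fold changes of 0.45 for IFIT1, 0.58 for IFIT3 and 0.57 for EIF2AK2.

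Among 8 effectors on entry, capsids, budding and nucleotides, IFITM3, RSAD2, CMPK2 and RTP4 rose with both shRNAs. IFITM3, which hinders the fusion of viruses in endosomes, had the highest level of the 40 genes, at 442 to 479.8 in controls and 842 to 1022 in the knockdown libraries, with log2 fold changes of 0.97 and 0.96. RSAD2 (viperin) and CMPK2, which lie next to each other on chromosome 12 and act together to make a chain-terminating nucleotide, rose by 1.10 and 1.17 with the first shRNA and by 1.35 and 1.31 with the second on the log2 scale. RTP4, which binds viral genomes and restrains their replication, changed by 1.20 and 1.08. BST2 (tetherin), which holds budding virus at the membrane, was at 97.4, 136 and 177 in controls, at 384, 178 and 259 with sh-B7-H3 (1) and at 353, 255 and 297 with sh-B7-H3 (2). It was called for the second shRNA only (1.16 ± 0.24, adjusted p = 0.0129), and without the leukocyte-rich library its value was 1.04 ± 0.27 (adjusted p = 0.051).

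MX2 and SAMD9L passed the test in neither sorted comparison, nor did MX1 in the one in which it was tested (0.34 ± 0.12, adjusted p = 0.127). MX2 was at 0.93, 1.22 and 1.45 in sorted sh-NC cells, at 1.58, 0.94 and 1.42 with sh-B7-H3 (1) and at 1.74, 1.38 and 1.41 with sh-B7-H3 (2), with overlapping groups. MX1, of the same dynamin-like family, was also low, with every sorted library at or below 1.7, and it did not pass the filter of the second comparison. RefSeq lists both as transcribed pseudogenes in this build, on chromosome 16. SAMD9L, a restriction factor of poxviruses and a brake on translation, was at 49.0, 62.2 and 42.3 in controls, at 78.3, 69.2 and 61.6 and at 63.7, 55.7 and 48.9. Its groups overlapped, and its log2 fold changes were 0.45 ± 0.18 (adjusted p = 0.157) and 0.14 ± 0.18 (adjusted p = 0.642).

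Of ISG15 and the 3 genes of its conjugation cycle, UBE2L6, the E2 enzyme that carries ISG15, moved most. It was at 8.68, 10.8 and 12.2 in sorted sh-NC cells, at 71.6, 33.2 and 38.6 with sh-B7-H3 (1), and at 46.3, 31.4 and 32.5 with sh-B7-H3 (2). The log2 fold changes of UBE2L6 were 2.01 ± 0.28 (adjusted p = 0.00194) and 1.70 ± 0.19 (adjusted p = 0.000702), and neither knockdown group overlapped the sh-NC group. HERC6, the E3 ligase of this reaction in mice, rose by 1.06 and 1.07. ISG15 itself was at 16.8, 25.9 and 29.5 in controls, at 60.3, 24.7 and 35.5 with the first shRNA and at 56.4, 37.7 and 39.9 with the second. It was called only for the second shRNA (0.88 ± 0.24, adjusted p = 0.0374), with 0.70 ± 0.24 (adjusted p = 0.115) without the leukocyte-rich library, and 1 sh-B7-H3 (1) library lay within the control range. USP18, which removes ISG15 and blunts signalling at IFNAR2, had log2 fold changes of 0.94 (adjusted p = 0.0649) and 0.98 (adjusted p = 0.00499).

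All 7 TRIM ligases and PARP-family genes rose with both shRNAs. PARP14, an ADP-ribosyltransferase, was at 7.0, 5.37 and 4.61 in controls, at 21.6, 15.3 and 15.3 with sh-B7-H3 (1), and at 24.5, 22.3 and 21.4 with sh-B7-H3 (2). Its log2 fold changes were 1.46 ± 0.19 (adjusted p = 0.00139) and 1.85 ± 0.16 (adjusted p = 0.000189). PARP9 and DTX3L form a ubiquitin ligase complex, and their genes start beside each other on chromosome 16 with overlapping spans, so that reads from the overlap could be assigned to either. PARP9 was at 20.7, 25.1 and 25.0 in controls, at 78.8, 48.3 and 48.6 and at 55.5, 42.7 and 41.7. DTX3L was at 12.3, 8.65 and 6.73, at 28.8, 20.6 and 21.4 and at 26.2, 25.2 and 23.3. In both genes each knockdown group was separate from the controls, with log2 fold changes between 0.95 and 1.38. TRIM30A, a mouse ligase that dampens Toll-like receptor signalling, was at 5.66, 7.29 and 5.16 in controls, at 27.6, 15.8 and 16.3 with the first shRNA and at 23.1, 15.2 and 14.9 with the second. It rose by 1.54 ± 0.23 and 1.40 ± 0.20 on the log2 scale, although close relatives of the TRIM30 family could share its reads. TRIM21, a cytosolic antibody receptor, TRIM25, a ligase of the RIG-I pathway, and PARP12, which blocks viral translation, had log2 fold changes between 0.63 and 0.98.

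In the remaining 7 genes, EPSTI1, IFI44, XAF1 and IFI35 rose with both shRNAs, while IFI27, IFI27L2A and LGALS3BP passed the test with neither. EPSTI1 was at 1.16, 1.03 and 1.12 in controls, at 5.46, 4.31 and 4.01 with sh-B7-H3 (1), and at 8.85, 3.97 and 3.83 with sh-B7-H3 (2). The value of 8.85 was that of the leukocyte-rich library, and the log2 fold change of 1.56 became 1.22 without it and remained called. IFI44 was at 4.84, 4.82 and 3.6, at 16.5, 10.3 and 9.65, and at 16.4, 14.0 and 11.7, with log2 fold changes of 1.25 ± 0.21 and 1.47 ± 0.17. XAF1, an antagonist of the apoptosis inhibitor XIAP, changed by 1.17 and 1.37. IFI27 was at 81.7, 106 and 138 in sorted sh-NC cells, at 131, 104 and 121 with the first shRNA, and at 117, 83.0 and 98.2 with the second, so all 3 groups overlapped. Its log2 difference with sh-B7-H3 (2), -0.11, turned to 0.12 with FPKM as deposited. IFI27L2A was at 3.5, 5.7 and 10.1, at 19.4, 15.4 and 6.51, and at 40.4, 9.12 and 13.1, and 40.4 was again that of the leukocyte-rich library. The annotated spans of IFI27 and IFI27L2A overlap on chromosome 12. LGALS3BP, a secreted glycoprotein, had log2 fold changes of 0.38 and 0.44.

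**Figure D2:**
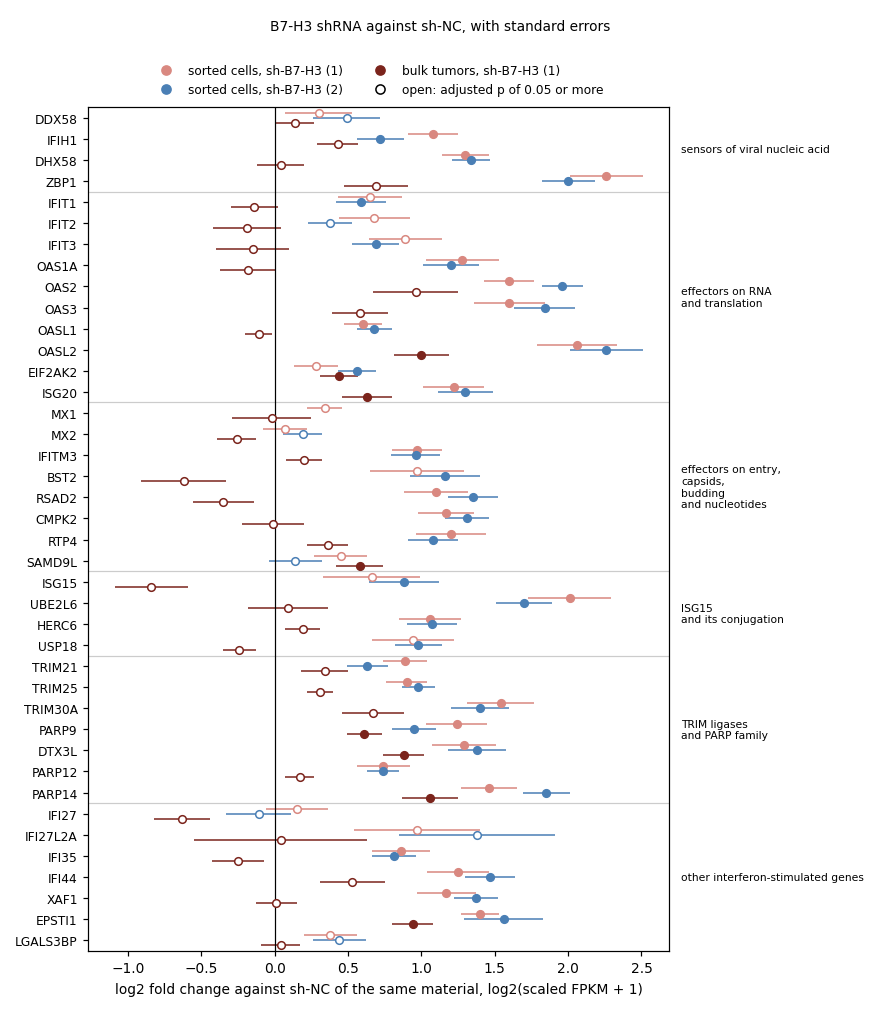
Log2 fold change (horizontal axis, with standard errors) of each of the 40 genes with B7-H3 shRNA against sh-NC of the same material, grouped by role, for both shRNAs in sorted cells and for sh-B7-H3 (1) in bulk tumors. Filled points passed an adjusted p below 0.05: 26 of 40, 32 of 39 and 8 of 40 genes.

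No antiviral gene differed between the 2 shRNAs in sorted cells when replicate numbers were not used. The differences of sh-B7-H3 (1) minus sh-B7-H3 (2) ranged from -0.41 to 0.36 on the log2 scale with a median of -0.05. An unadjusted p below 0.05 (limma) was reached by 5 of the 40 genes, and by 2474 of all 11244 genes tested. Of all genes tested, 1.76% were called higher and 1.64% lower. These 2 groups were the only pair whose same-numbered replicates deviated together for every number. With the replicate number as a block, 5 antiviral genes were called: IFIH1 (0.36 ± 0.06, adjusted p = 0.0277), SAMD9L (0.31 ± 0.05, adjusted p = 0.0259) and IFI27 (0.26 ± 0.06, adjusted p = 0.0443) were higher with the first shRNA, and PARP14 (-0.38 ± 0.08, adjusted p = 0.0448) and OAS2 (-0.36 ± 0.08, adjusted p = 0.0472) were lower. The number of all genes called rose from 382 to 1863 of the 11244 tested in that fit, so the 5 of 40 stand beside frequent calls among all genes.

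In bulk tumors the values of the antiviral genes lay on both sides of 0, with 26 of 40 above it. With sh-B7-H3 (1), 8 rose and none was called lower by limma (ISG15 and IFI27 had unadjusted p of 0.012 and 0.0128), and the median log2 fold change was 0.16 beside 0.02 over all genes, from -0.84 for ISG15 to 1.06 for PARP14. Of all genes tested in bulk tumors, 12.8% were called higher and 8.51% lower. The 8 were OASL2, EIF2AK2, ISG20, SAMD9L, PARP9, DTX3L, PARP14 and EPSTI1, of which 6 had also risen with both shRNAs in sorted cells. This count moved with single libraries: it was 1 (EPSTI1) without bulk sh-B7-H3 (1) replicate 1, 3 without bulk sh-NC replicate 2, and 3 without bulk sh-NC replicate 3. With FPKM as deposited it was 4. In bulk tumors fewer cells of a type and less RNA per cell cannot be told apart.

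PARP14 was at 9.45, 7.89 and 6.28 in bulk sh-NC tumors and at 19.8, 19.7 and 13.3 in bulk sh-B7-H3 (1) tumors (log2 fold change 1.06 ± 0.19, adjusted p = 0.0133). OASL2 was at 29.7, 22.3 and 17.5 against 52.4, 44.2 and 42.8 (1.00 ± 0.19, adjusted p = 0.015). EPSTI1 was at 3.95, 4.23 and 5.3 against 10.3, 10.1 and 8.11 (0.94 ± 0.14, adjusted p = 0.00664). In these 3 genes the groups were separate. DTX3L was at 13.4, 10.4 and 9.8 against 24.0, 21.7 and 18.7, and rose by 0.88 ± 0.14 (adjusted p = 0.00951, and 0.0519 without bulk sh-B7-H3 (1) replicate 1). PARP9 was at 21.1, 18.0 and 18.7 against 34.2, 29.1 and 26.8, a log2 fold change of 0.61 ± 0.12 (adjusted p = 0.0155). ISG20 was at 9.16, 7.47 and 9.18 against 16.7, 10.5 and 14.8 (0.63 ± 0.17, adjusted p = 0.0441), and lost its call without any of 5 of the 6 libraries. SAMD9L, which passed the test in neither sorted comparison, was at 40.2, 40.8 and 32.1 against 58.8, 46.5 and 66.4 (0.58 ± 0.16, adjusted p = 0.0419). PARP14 lost its call without bulk sh-B7-H3 (1) replicate 1 (adjusted p = 0.0669) or bulk sh-NC replicate 3 (adjusted p = 0.0537), and OASL2 without bulk sh-B7-H3 (1) replicate 1 (adjusted p = 0.0741) or bulk sh-NC replicate 2 (adjusted p = 0.0529).

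The bulk libraries were fully separate for 14 genes upward, against 24.5% of all genes, and for 4 genes downward, against 20.0% of all genes. The 4 were ISG15, USP18, MX2 and IFI27, and none passed the test. ISG15 was at 57.8, 53.1 and 48.3 in bulk sh-NC tumors and at 30.2, 41.6 and 19.4 with sh-B7-H3 (1) (log2 fold change -0.84 ± 0.25, adjusted p = 0.0536). IFI27 was at 121, 108 and 133 against 76.3, 101 and 60.1 (-0.63 ± 0.19, adjusted p = 0.0557). Without bulk sh-B7-H3 (1) replicate 2, ISG15 (-1.10), IFI27 (-0.82) and BST2 (-0.93) were called lower. That library had the highest leukocyte sum of the 6, at 415, and its IFI27L2A value of 107 stood beside 35.7 and 17.0 in its group. Between the bulk groups the T cell markers also differed, from 2.66 to 3.1 with sh-NC and from 6.77 to 22.7 with sh-B7-H3 (1). The sums of 4 other lists were separate as well. Fibroblast markers summed to 104 to 188 with sh-NC and 301 to 692 with sh-B7-H3 (1), plasmacytoid dendritic cell markers to 20.8 to 23.5 and 28.1 to 34.5, and epithelial and renal tumor markers to 802 to 911 and 1066 to 1416. Neutrophil markers went the other way, at 5.49 to 11.3 and 2.11 to 3.67. The plasmacytoid dendritic cell list (6 of 7 found) also summed to 9.77 to 17.4 in the 8 sorted libraries with low leukocyte sums. The part of any of these cell types in the bulk values was not tested.

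With sh-NC, antiviral genes were higher in bulk tumors than in sorted cells. They were called higher for 23 of 40 genes and lower for none, with a median log2 difference of 0.60 beside 0.04 over all genes, of which 10.4% were called higher and 6.48% lower. OAS2 and MX1 met the filter here only through the bulk libraries, and 21 of the other 38 genes were called. IFI27L2A differed most, at 32.9, 37.3 and 49.0 in bulk against 3.5, 5.7 and 10.1 in sorted cells (2.53 ± 0.31, adjusted p = 0.00133). EPSTI1 followed, at 3.95, 4.23 and 5.3 against 1.16, 1.03 and 1.12 (1.38 ± 0.13, adjusted p = 0.000241). ISG15, at 48.3 to 57.8 in bulk and 16.8 to 29.5 in sorted cells, differed by 1.14 ± 0.21 (adjusted p = 0.00997). OASL2 (1.25 ± 0.29, adjusted p = 0.0255) and OAS3 (1.09 ± 0.25, adjusted p = 0.0255) were also higher in bulk. By role, 7 of 10 effectors on RNA and translation and 7 of 8 effectors on entry, capsids, budding and nucleotides were called, while none of the 7 TRIM and PARP genes was. Leukocyte markers summed to between 221 and 317 in bulk against 5.77 to 9.16 in sorted cells, and their part was not tested. Sorted cells were also dissociated and passed over a column before RNA was extracted. The methods name the RNeasy Plus Micro or the RNeasy Mini kit for sorted cells and bulk tumors. Cell content and handling thus cannot be told apart where bulk and sorted material are compared. The count of 23 fell to 3, 2 and 3 without bulk sh-NC replicate 1, 2 or 3, to 7 without sorted sh-NC replicate 2, and to 4 with FPKM as deposited. OASL2, ISG15 and OAS3 each lost their call without any 1 of the bulk libraries, with adjusted p between 0.0593 and 0.141, and OASL2 and OAS3 also without sorted sh-NC replicate 2 (0.102 and 0.0983) or 3 (0.0536 and 0.0517).

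With sh-B7-H3 (1), the order of bulk and sorted material was mixed. Of the 40 genes, 2 were called higher in bulk (EIF2AK2 and EPSTI1) and 7 lower (IFIH1, ZBP1, IFIT2, UBE2L6, PARP9, PARP12 and IFI27), with a median of -0.20 beside 0.03 over all genes, of which 21.1% were called higher and 17.1% lower. UBE2L6 was at 20.9, 25.6 and 11.7 in bulk against 71.6, 33.2 and 38.6 in sorted cells (-1.24 ± 0.34, adjusted p = 0.0262). ZBP1 was at 60.0, 63.7 and 36.2 against 170.0, 87.3 and 93.3 (-1.09 ± 0.30, adjusted p = 0.0252). In both, every bulk library lay below every sorted one. IFIT2 was at 36.7, 38.1 and 21.2 against 89.3, 46.8 and 49.0 (-0.91 ± 0.30, adjusted p = 0.0461), and PARP9 differed by -0.91 ± 0.20 (adjusted p = 0.0126). EPSTI1 went the other way, at 10.3, 10.1 and 8.11 in bulk against 5.46, 4.31 and 4.01 (0.91 ± 0.14, adjusted p = 0.00384). The count of 9 was 2 without bulk sh-B7-H3 (1) replicate 1, 3 without sorted sh-B7-H3 (1) replicate 1, 4 without sorted sh-B7-H3 (1) replicate 3, and 17 (2 higher and 15 lower) with FPKM as deposited. UBE2L6, ZBP1 and IFIT2 lost their calls without replicate 1 of the bulk or of the sorted group, with adjusted p between 0.0540 and 0.138, and IFIT2 also without bulk replicate 3 (0.0925) or sorted replicate 3 (0.0575). The signs of OASL2, OAS3, IFI44, PARP14, DDX58 and LGALS3BP in this comparison, between 0.01 and 0.20, turned negative with FPKM as deposited.

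**Figure D3:**
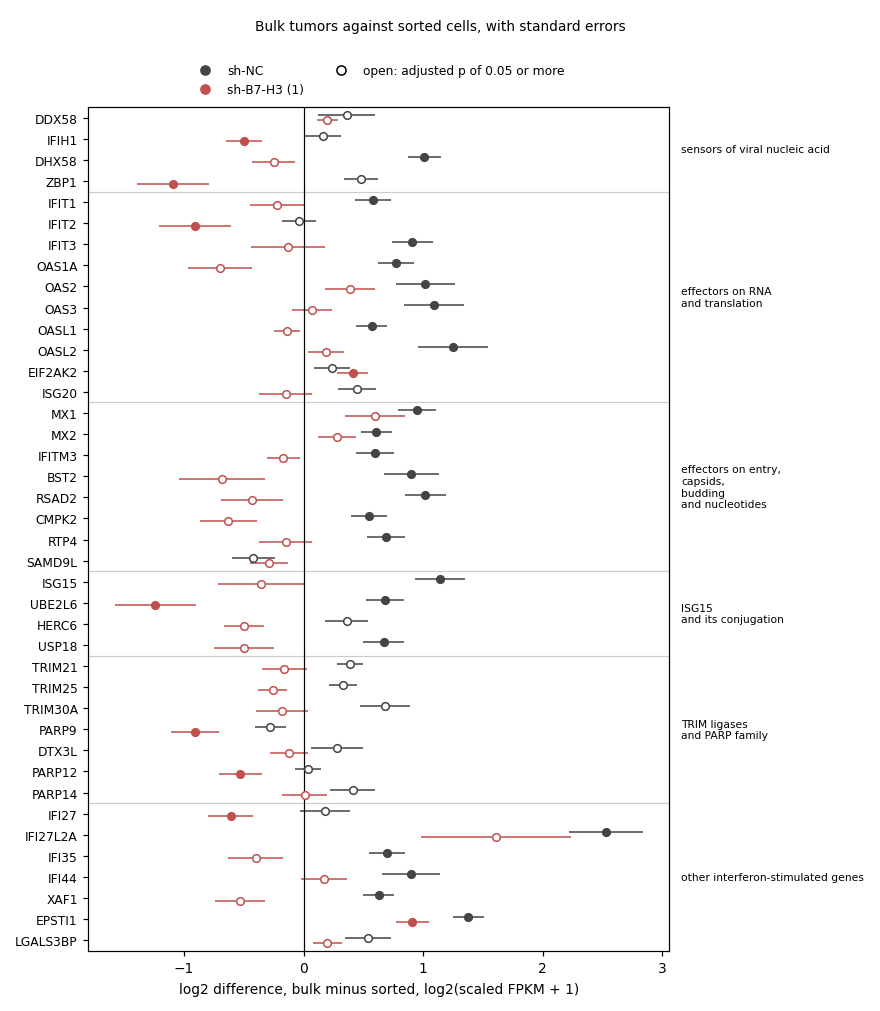
Log2 difference of bulk tumors minus sorted cells (horizontal axis, with standard errors) for each of the 40 genes, in sh-NC and in sh-B7-H3 (1) tumors. With sh-NC 37 genes lie above 0 and 23 were called higher, and with sh-B7-H3 (1) 12 lie above 0, with 2 called higher and 7 lower (filled points).

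The difference between these contrasts was itself tested as an interaction, the sh-B7-H3 (1) effect in sorted cells minus that in bulk tumors. It was above 0 for 38 of 40 genes with a median of 0.79 beside -0.01 over all genes, but only DHX58 was called (1.26 ± 0.24, adjusted p = 0.0466), where 0.249% of all genes were called higher and 0.215% lower. DHX58 was at 11.1, 8.78 and 7.9 in bulk sh-NC and at 9.95, 10.9 and 7.76 in bulk sh-B7-H3 (1) tumors, so the bulk groups overlapped while the sorted groups did not. Its call was lost in each of the 12 fits that left out 1 library (values 1.11 to 1.39, adjusted p from 0.0516 to 0.132). An unadjusted p below 0.05 (limma) was reached by 28 of the 40 genes, and by 1767 of all 12071 genes tested. Among the 28 were UBE2L6 (1.92 ± 0.42, adjusted p = 0.0869) and ZBP1 (1.57 ± 0.36, adjusted p = 0.098), which took the place of DHX58 as the called genes with FPKM as deposited.

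Over single libraries, the median of the 40 genes on the log2(scaled FPKM + 1) scale was 3.58, 3.35 and 3.38 in sorted sh-NC cells. It was 4.77, 4.34 and 4.41 with sh-B7-H3 (1) and 4.75, 4.58 and 4.54 with sh-B7-H3 (2). All 6 sorted knockdown libraries were thus above all 3 sorted controls. Bulk tumors lay above the sorted controls, at 4.28, 4.01 and 3.97 with sh-NC and at 4.42, 4.47 and 4.16 with sh-B7-H3 (1), and the latter overlapped the sorted sh-B7-H3 (1) libraries. Sorted sh-B7-H3 (1) replicate 1 had the highest value of its group for 38 of the 40 genes and of all sorted libraries for 26, and sorted sh-B7-H3 (2) replicate 1 the highest of its group for 37. Without sorted sh-B7-H3 (1) replicate 1, the first shRNA gave 21 of 38 genes higher, all among the 26, with OASL1, IFITM3, PARP12 and IFI35 no longer called. OAS2 and MX1 were not tested in that fit, in which only 2 libraries of each reached 1. The 9.03% of all genes called higher belongs to the fit with every library and is no background for the 21.

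**Figure D4:**
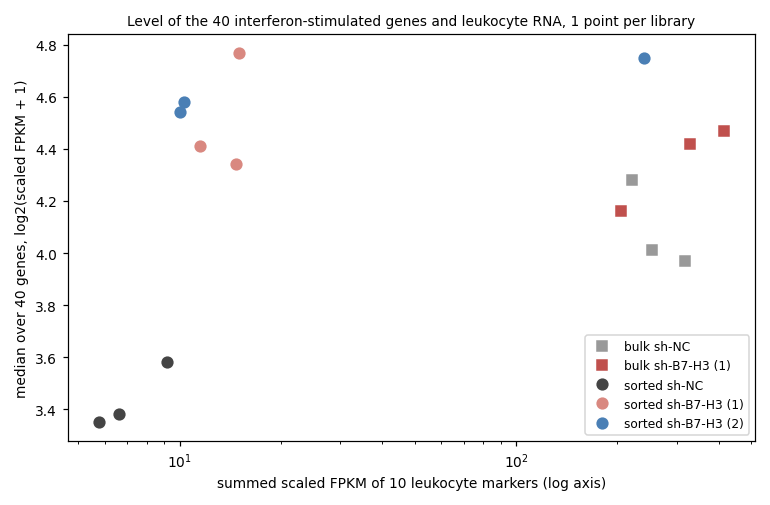
Median of the 40 genes on the log2(scaled FPKM + 1) scale (vertical axis) against the summed scaled FPKM of 10 leukocyte markers (log axis), 1 point per library. Sorted knockdown libraries lie at 4.34 to 4.77 with leukocyte sums of 10.0 to 15.0 in 5 of 6 libraries and 240.2 in the other, and bulk libraries at 3.97 to 4.47 with sums of 205 to 415.

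The interferon ligands themselves were near 0. Of 20 type I and III ligand genes, 7 were at 0 in every library, no single value exceeded 0.298 scaled FPKM, and none passed the filter to be tested. IFNB1 held that highest value, in bulk sh-B7-H3 (1) replicate 3. It was at 0 in 5 libraries, including the 3 of sorted sh-NC, and between 0.0585 and 0.193 in the 6 sorted knockdown libraries, which is too low to be read as a difference at this depth. STAT2 and IRF9, components of ISGF3, were called only with the second shRNA (0.84 and 0.63), beside 0.48 (adjusted p = 0.152) and 0.56 (adjusted p = 0.0528) with the first.

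Among 12 genes of the pathway that induces interferon, 9 were tested in sorted cells, of which 3 rose with sh-B7-H3 (1) and 4 with sh-B7-H3 (2), where 9.03% and 11.7% of all genes were called higher. In bulk tumors 2 of 12 rose, where 12.8% of all genes did, and 1 of the 2, MB21D1 (cGAS), met the filter only through the sh-B7-H3 (1) libraries. TLR3, the endosomal receptor of double-stranded RNA, rose in all 3 comparisons, by 1.63, 1.91 and 1.08 on the log2 scale. IRF7, the transcription factor that amplifies interferon genes, rose by 0.85 and 0.80 in sorted cells and had -0.19 in bulk. STING (TMEM173), the adaptor for cytosolic DNA, rose by 0.64 and 0.86. Of 4 negative regulators, 2 rose with each shRNA in sorted cells. The JAK inhibitor SOCS1 rose by 1.45 and 1.60 and PTPN6 by 1.20 and 1.31. PTPN6 is also 1 of the 10 leukocyte markers. It was at 11.5 in the leukocyte-rich library, beside 4.28 and 4.45 in that group and 1.75 to 2.01 with sh-NC. SOCS3 (0.03 and 0.26) and PIAS1 (-0.12 and -0.13) were called with neither shRNA.

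The guanylate-binding proteins and immunity-related GTPases, which IFN-γ induces strongly, and the class II genes were read beside them. Of 17 GTPases tested in sorted cells, 7 (GBP4, GBP5, GBP6, GBP8, GBP9, GBP10 and GM12250) were below 1 in every sh-NC library and entered the test only through the knockdown libraries, so their calls are partly fixed by the filter. The other 10 were all called higher with each shRNA, with medians of 2.81 and 2.60. Of 8 class II genes, CIITA and H2-DMA entered in the same way, and the other 6 were all called higher with each shRNA. In bulk tumors 7 of 14 GTPases were called higher, with a median of 1.16, where 12.8% of all genes were. Of the class II genes there, CIITA again entered through the knockdown libraries alone, and 5 of the other 7 were called higher. The difference between these lists and the antiviral genes was not tested.

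The 13 genes whose promoter holds the ISRE core printed above had median log2 fold changes of 0.97 and 0.88 in sorted cells, with 7 and 12 called, and of 0.14 in bulk. The 16 genes with a promoter that lacks these letters had 1.12 and 1.18, with 13 called by each shRNA, and 0.18 in bulk.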

How the data were processed

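The authors deposited FPKM values for 24917 entries, 1 column per library, and a further table of log2(FPKM + 1) for 1000 genes, which differed from the first by at most 8.91e-08. Libraries were made from mRNA and read single-end, and a kit that marks strand is named by the labels while the methods name another. The build is mm10 per the submitters' processing notes. The aligner and annotation are not given in the sources used here, nor is the use of strand in counting. The paper's methods name the VIPER pipeline for its expression analysis.

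After 26 entries with date-like symbols were dropped, FPKM were divided by median-ratio factors (0.65 to 1.18, over 9872 genes). Genes with at least 1 scaled FPKM in 3 libraries of a comparison were tested on log2(scaled FPKM + 1) with limma 3.58.1 (R 4.3.3, mean-variance trend, 2-sided), with Benjamini-Hochberg adjustment over all genes tested. The planned design named a count test for counts and this test for FPKM. The script was tested on simulated data. The tables hold no read totals, and relative depth was taken from the spacing of low values. The 40 genes and all gene lists were chosen with earlier results of these data known.

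Genes with values in every library are the 8 largest changes of each sorted comparison, the 5 largest of each other one, and the 3 smallest in sorted cells, and others are given where a role or limit needs them. Alternatives were FPKM as deposited, a pseudocount of 0.1, no filter, the replicate number as a block, 1 fit over all 5 groups and leaving out each library. Deviations from group means over 12202 genes correlated for same-numbered replicates at 0.208, 0.229 and 0.209 between the 2 sorted knockdown groups, and no other pair of groups had all 3 above 0.1. The labels do not say what a number shares. Promoters and positions are from RefSeq, GRCm38.p6. One gene of the interferon pathway is not reported here.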

Additional observations from a re-analysis of the deposited data

Results flagged for a closer look

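The effect of sh-B7-H3 (1) differed between sorted cells and bulk tumors for DHX58, by an interaction of 1.26 on the log2 scale (limma, adjusted p = 0.0466). In sorted cells the 3 knockdown libraries (9.41 to 14.4 scaled FPKM) lay above the 3 controls (3.8 to 4.18), and in bulk tumors the groups overlapped (7.76 to 10.9 against 7.9 to 11.1). That call was lost in each of the 12 fits that left out 1 library (adjusted p from 0.0516 to 0.132), with FPKM as deposited (0.081), a pseudocount of 0.1 (0.0603), no filter (0.0649) and the replicate block (0.0597), and held with 1 fit over all 5 groups (0.0473). For USP18 every sorted knockdown library (20.4 to 45.4) lay above the sorted controls (12.2 to 17.5), and every bulk knockdown library (19.6 to 21.2) below the bulk controls (21.8 to 28.5). The interaction of USP18 was 1.18 and was not called (limma, adjusted p = 0.179).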

How the results depend on the processing

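Leaving out each library in turn gave 21 to 27 antiviral genes called with sh-B7-H3 (1) in sorted cells (main value 26) and 25 to 33 with sh-B7-H3 (2) (32), 0 between the shRNAs, 1 to 11 in bulk (8), 2 to 31 between bulk and sorted sh-NC (23), 2 to 11 with sh-B7-H3 (1) (9) and 0 in the interaction (1). The medians of the tested genes ranged, in the same order, from 0.85 to 1.19, 0.90 to 1.08, -0.20 to 0.06, 0.12 to 0.27, 0.51 to 0.64, -0.31 to -0.07 and 0.59 to 0.88. Over all genes the counts ranged from 724 to 1948 (1496), 964 to 3611 (2153), 35 to 890 (382), 546 to 3793 (2520), 140 to 4439 (1927), 1673 to 3816 (4469) and 12 to 72 (56). The median between the shRNAs turned positive in 3 such fits (0.06, 0.01 and 0.06). The log2 fold change of IFI27 ranged from -0.03 to 0.34 (0.15) with sh-B7-H3 (1) and from -0.30 to 0.08 (-0.11) with sh-B7-H3 (2), and that of MX2 reversed to -0.02 and -0.01 with sh-B7-H3 (1).

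With FPKM as deposited, the medians were 1.20, 1.27, -0.09, 0.19, 0.45, -0.49 and 0.95, beside all-gene medians of 0.17, 0.21, -0.03, 0.05, -0.09, -0.23 and 0.12. It called 4 antiviral genes in bulk, 4 between bulk and sorted sh-NC, 17 with sh-B7-H3 (1) and 2 in the interaction, and 961, 652 and 128 of all genes in the first, second and last of these. The share of all calls that were higher went from 67.4% to 84.2% and from 61.1% to 83.2% in sorted cells, from 60.1% to 70.2% in bulk, from 61.6% to 79.8% between bulk and sorted sh-NC, from 55.2% to 22.8% with sh-B7-H3 (1) (22.2% to 11.8% of the antiviral calls), and from 53.6% to 67.2% in the interaction. IFI27 reversed to 0.12 with sh-B7-H3 (2).

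Without a filter, 5 antiviral genes were called in bulk, 2 between bulk and sorted sh-B7-H3 (1), 0 in the interaction, and 137 genes in all between the shRNAs. A pseudocount of 0.1 left 0 antiviral genes and 25 of all genes in the interaction. One fit over all 5 groups called 3083 genes between bulk and sorted sh-NC and 36 in the interaction. With the replicate number as a block, 20 and 24 antiviral genes were called in sorted cells, 5 between the shRNAs, 9 in bulk and 0 in the interaction, and 915, 1396, 1863, 1413 and 24 of all genes. Only the 2 sorted knockdown groups met the rule for pairing, and elsewhere the numbers are shared labels. The cause of these changes was not tested. Read depth is known only relative to 1 library, which limits what can be said of OAS2, MX1, MX2 and the ligands at low FPKM.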
